A study of Saccharomyces cerevisiae with 16 samples.

Results

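The 3′ end of yeast 25S rRNA, from nucleotide (nt) 2421 to nt 3396, was examined one nucleotide at a time for the places where reverse transcriptase had stopped. This stretch holds much of domain V, with the peptidyl transferase center, and domain VI. Its 976 nt were chosen by position, out of 3396 nt of 25S rRNA and 5196 nt of 18S and 25S rRNA together. They lie at positions 451787 to 452762 of chromosome 12 (sacCer3), on the reverse strand, inside the exon of the non-coding gene RDN25-1. The position of each nt in the deposited table is 1 higher than in the R64 annotation, and nt numbers follow the published rRNA numbering. A second rDNA copy listed 9137 nt away carried the same counts at all 976 nt, so only the first copy was used. Within the stretch, 7 nt are known pseudouridines (Ψ), taken from the marks for known sites in the study's site list.

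Pseudouridine is an isomer of uridine in which the base is joined to the ribose through carbon. In PSI-seq, RNA is treated with CMCT, which adds a bulky group to uridine and guanosine and to Ψ, and alkali then removes the group from all but Ψ. Reverse transcriptase halts at the group that remains, and the end of the cDNA is sequenced. In yeast rRNA, Ψ is made by H/ACA small nucleolar ribonucleoproteins, each guided by a snoRNA: snR189 for Ψ2735, snR34 for Ψ2826 and Ψ2880, snR46 for Ψ2865, snR10 for Ψ2923, snR37 for Ψ2944 and snR42 for Ψ2975. Other modifications of this stretch are 3-methyluridine (m3U) at nt 2634, made by Bmt5, and at nt 2843, made by Bmt6. The methyl group of m3U sits on the base-pairing face and halts reverse transcriptase without any CMCT. The list also took in 13 nt with a methyl group on the 2′ oxygen of the ribose, which base pair normally. Of these, Um2921 and Gm2922 lie in the A loop, which binds the end of the aminoacyl-tRNA, and Gm2619 lies in the P loop, which binds the end of the peptidyl-tRNA.

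All cells were strain BY4741, grown in YPD at 30 °C in 2 cultures. One gave a heat shock sample (45 °C for 30 min), the other a stationary phase sample, and each gave a log phase sample before that. The log phase samples are called log phase of the heat shock culture and log phase of the stationary culture. The RNA had been selected for poly(A), so the rRNA in it is what that selection left behind. Natural RNA was set against RNA transcribed in vitro (IVT), which carries no modification and into which 18S and 25S rRNA transcripts had been spiked. Each RNA was split into a +CMCT portion and a mock portion (−CMCT), giving 4 libraries in each of 4 experiments. Heat shock and stationary phase thus have 1 library per treatment and RNA, and log phase has 2. The p-values measure the spread between these experiments, whose growth conditions differ. The tests treat the 4 experiments as independent, although each culture gave 2 of them. The study left its stationary phase libraries out of its later work for lower technical quality, and they are kept here.

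Reads that stopped within the 976 nt numbered 202992, 162727, 86582 and 161501 in the natural +CMCT libraries of heat shock, stationary phase, log phase of the heat shock culture and log phase of the stationary culture. The experiments keep this order wherever 4 values are given below. The natural −CMCT libraries held 215430, 36545, 91159 and 105445 such reads. The IVT libraries were shallower, with 27977, 9422, 7693 and 10089 reads with CMCT and 8240, 10555, 5494 and 4190 without. In the shallowest, the IVT −CMCT library of the log phase of the stationary culture, 330 of the 976 nt had no read. The 976 nt took 17.02% ± 3.34 of the 18S and 25S reads in natural +CMCT libraries and 28.7% ± 14.7 in IVT +CMCT libraries (SD, n = 4 each; exact two-sided permutation test, p = 0.229). Without CMCT the shares were 17.7% ± 3.96 in natural and 32.7% ± 19.4 in IVT RNA (SD, n = 4 each; exact p = 0.257). The IVT share differed widely among experiments, at 43.8%, 12.7%, 54.01% and 20.3% without CMCT.

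CMCT raised the number of stops at every known Ψ of the stretch in natural RNA. Together the 7 nt took 79079 of 613802 reads (12.9%) in the natural +CMCT libraries and 3763 of 448579 reads (0.839%) in the natural −CMCT libraries. In IVT RNA they took 717 of 55181 reads (1.30%) with CMCT and 208 of 28479 (0.730%) without. In the fit over 111579 positions of the whole table, all 7 passed the test for more stops with CMCT in natural RNA (adjusted p below 0.05), against 3.91% of all positions. Their log2 changes lay between 2.83 and 4.31, and the middle one of the 7 was 3.68, where the median of every tested position was 0.23. Leaving out any 1 experiment kept all 7 calls, and none passed when the experiment was not a block in the fit.

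Ψ2735, the first Ψ of the stretch, carried the most reads of the 7. It had 7653, 11323, 3756 and 13381 reads in natural +CMCT libraries, against 360, 217, 200 and 809 in natural −CMCT libraries. As a share of the reads of the stretch, this was 3.77% to 8.29% with CMCT and 0.167% to 0.767% without. The fitted change was 3.68 on the log2 scale (SE 0.47, adjusted p = 2.11e-11, edgeR's quasi-likelihood test, adjusted by Benjamini-Hochberg). In IVT RNA it had 37, 76, 21 and 69 reads with CMCT, against 12, 33, 13 and 25 without.

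Both targets of snR34 had the largest fitted changes and far fewer reads. Ψ2826 had 1784, 169, 943 and 395 reads in natural +CMCT libraries, against 101, 8, 45 and 0 in natural −CMCT libraries, a fitted log2 change of 4.08 (SE 0.45, adjusted p = 1.22e-15, same test). The library with no read at Ψ2826 was the −CMCT library of the log phase of the stationary culture, and with 3 reads in place of 0 the +CMCT share of the reads of the stretch was at least 86.0-fold higher there. Ψ2880 had 1229, 409, 978 and 604 reads in natural +CMCT libraries, against 50, 10, 23 and 14 in natural −CMCT libraries, a fitted log2 change of 4.31 (SE 0.44, adjusted p = 4.65e-18, same test). At both nt the stationary phase +CMCT library held the fewest reads of the 4. In IVT RNA, Ψ2880 had 20, 4, 9 and 6 reads with CMCT, against 4, 5, 2 and 3 without.

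Ψ2865 had 3473, 2723, 2615 and 4666 reads in natural +CMCT libraries, against 202, 80, 92 and 216 in natural −CMCT libraries. Ψ2923, which lies in the A loop next to Gm2922, had 3303, 2005, 1871 and 5626 reads, against 165, 99, 123 and 225 without CMCT. Their fitted log2 changes were 3.69 (SE 0.44) and 3.40 (SE 0.43). As a share of the reads of the stretch, Ψ2865 took 1.67% to 3.02% with CMCT and 0.0938% to 0.219% without. For Ψ2923 the shares were 1.23% to 3.48% and 0.0766% to 0.271%.

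Ψ2944 had the smallest change of the 7. It had 1335, 177, 764 and 268 reads in natural +CMCT libraries, against 171, 12, 73 and 9 in natural −CMCT libraries, a fitted log2 change of 2.83 (SE 0.41, adjusted p = 1.18e-08, same test). Ψ2975 had 3529, 859, 2131 and 1110 reads with CMCT, against 224, 45, 139 and 51 without, and a fitted log2 change of 3.25 (SE 0.42). At Ψ2944 the −CMCT library of heat shock, with 171 reads, was close to the +CMCT library of stationary phase, with 177, which has fewer reads of the stretch.

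**Figure D1:**
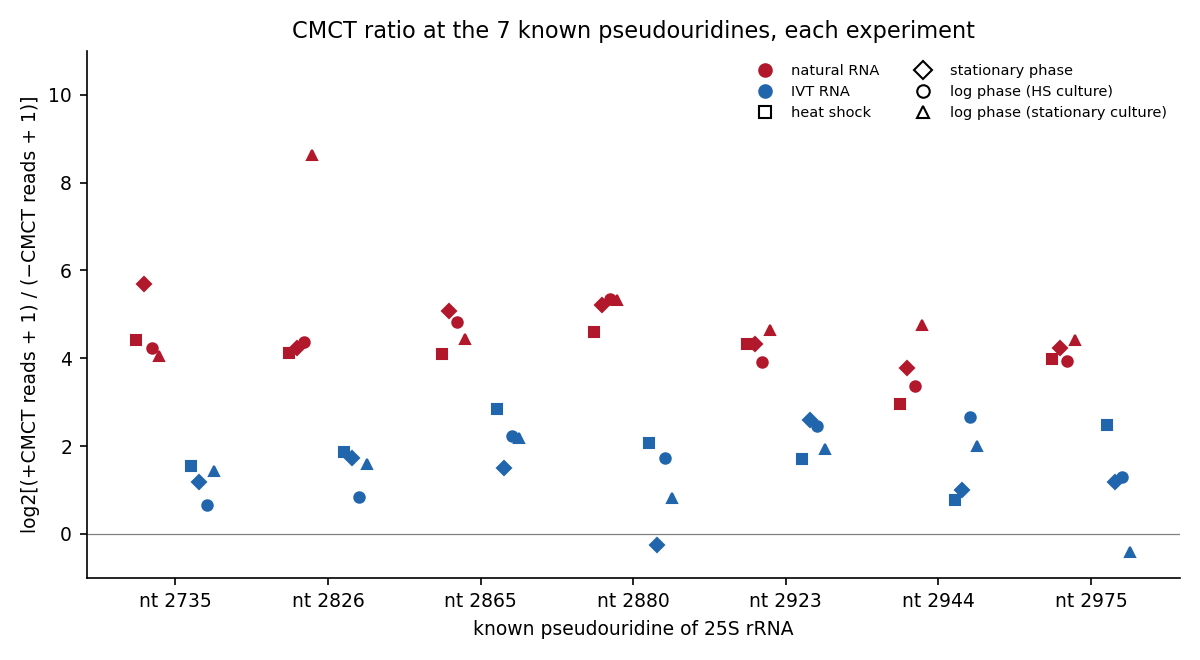
Log2 of (+CMCT reads + 1) over (−CMCT reads + 1) at each known Ψ (x axis), with natural RNA in red on the left and IVT RNA in blue on the right of each site; each point is 1 experiment. Every red point lies above the blue points of the same site, and the highest, 8.63, is Ψ2826 in the log phase of the stationary culture, where the −CMCT library had 0 reads.

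A log2 ratio of reads, with 1 read added to each library, shows each experiment apart and is not scaled for depth. At all 7 Ψ the ratio in each of the 4 natural pairs exceeded that in each of the 4 IVT pairs, as it did at 2.99% of 18S and 25S nt with at least 50 reads. The lowest natural ratio was 2.96 (Ψ2944, heat shock) and the highest IVT ratio was 2.85 (Ψ2865, heat shock). The natural minus IVT difference averaged 4.04 ± 1.27 at Ψ2880, the largest of the 7, and 2.10 ± 0.97 at Ψ2944, the smallest (SD, n = 4 experiments). The median natural ratio of the 7 was 4.13, 4.33, 4.22 and 4.64. In the other 2420 nt of 25S rRNA, the 23 known Ψ had median natural ratios of 3.48, 3.96, 3.64 and 3.70.

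The direct comparison of the CMCT effect in natural and IVT RNA was fitted over 210740 positions and all 16 libraries. The difference was positive at all 7 Ψ, with a median of 2.47 on the log2 scale. Only Ψ2735 passed the test, with a difference of 3.20 (SE 0.62, adjusted p = 0.0187, edgeR's quasi-likelihood test, adjusted by Benjamini-Hochberg), and 0.00332% of all positions passed it in that direction. Ψ2880 had a larger difference, 3.77 (SE 0.83), with an adjusted p of 0.122, and Ψ2826 had 3.19 (SE 0.85) with an adjusted p of 0.722. The other 4 had differences between 1.62 and 2.47 and an adjusted p of 1. The call at Ψ2735 was lost without heat shock (2.78, adjusted p = 0.670), without the log phase of the heat shock culture (3.13, adjusted p = 0.315) and without the log phase of the stationary culture (2.98, adjusted p = 0.139), and DESeq2 called 5 of the 7. IVT libraries alone gave no call for a CMCT effect at any position with edgeR's test, and 5410 of 112157 positions had an unadjusted p under 0.05. The 6 Ψ tested there had log2 changes between 0.50 and 1.62.

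**Figure D2:**
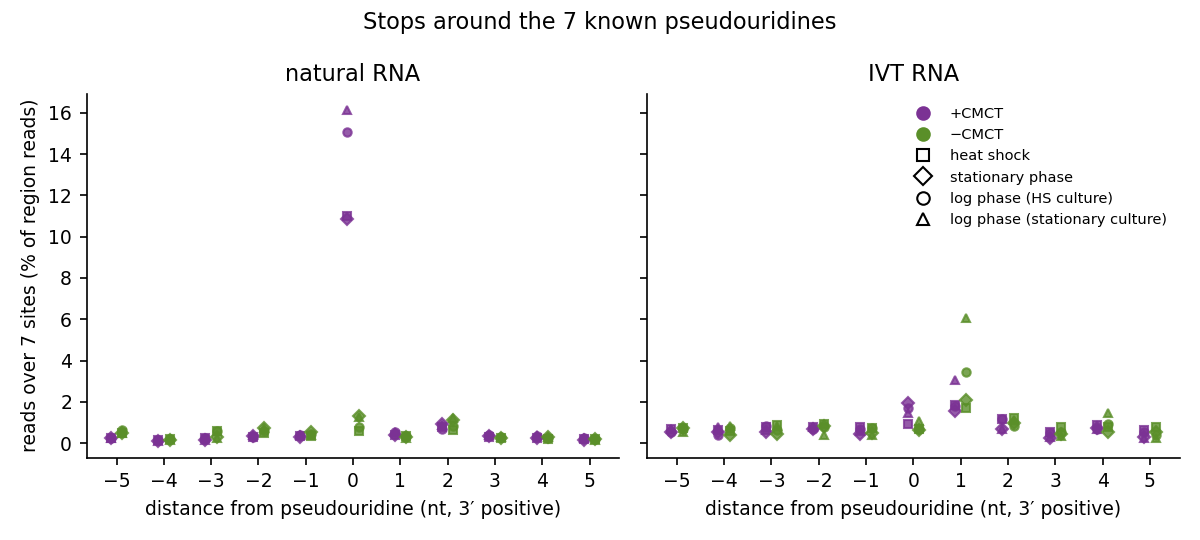
Reads at each distance from the 7 known Ψ, summed over the sites, as a percentage of the reads of the stretch (y axis), for natural RNA (left) and IVT RNA (right), +CMCT in purple and −CMCT in green; each point is 1 library. The +CMCT libraries of natural RNA hold 10.9% to 16.1% of their reads at distance 0 and under 1% at every other distance shown, while 7 of the 8 IVT libraries have their highest value 1 nt to the 3′ side and the stationary phase +CMCT library at distance 0.

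Within 5 nt on either side, the CMCT-dependent stops lay mostly at the Ψ itself. The nt 1 position to the 3′ side of a Ψ held 2743 natural +CMCT reads over the 7 sites and those 1 position to the 5′ side held 2249, against 79079 at the Ψ themselves. Of these 14 neighbors, 3 passed the test for more stops with CMCT in natural RNA: nt 2734, nt 2736 and nt 2881, with log2 changes of 1.23, 1.52 and 1.29. In that direction 3.46% of the tested nt of the stretch passed, and 3.91% of all positions. One neighbor, nt 2943, passed in the other direction (log2 change −1.82, adjusted p = 0.000335, same test). It had 112, 64, 41 and 81 reads with CMCT, against 316, 64, 147 and 100 without. Fewer stops were called at 15.1% of the tested nt of the stretch and at 1.03% of all positions. So 1 of 14 neighbors was not above the share of the stretch. The 3 calls for more stops were lost without the log phase of the heat shock culture, and also without the log phase of the stationary culture, those at nt 2734 and nt 2881 without heat shock and that at nt 2736 without stationary phase. The call at nt 2943 was lost without heat shock or the log phase of the heat shock culture. In IVT RNA without CMCT, 645 of the 808 reads found 1 nt to the 3′ side of a Ψ lay at nt 2945, which is next to Ψ2944 and Am2946.

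Beyond the Ψ and their neighbors, nt 2766, nt 2723 and nt 2882 had the largest CMCT effects of the stretch. None of these is a known Ψ. Nt 2766 had 368, 661, 237 and 722 reads in natural +CMCT libraries, against 78, 50, 32 and 139 without CMCT (log2 change 1.87, adjusted p = 0.000283, same test). Its change was smaller than that of any Ψ, and in IVT RNA it had 12, 7, 3 and 7 reads with CMCT, against 5, 3, 3 and 11 without. Nt 2882 lies 2 nt to the 3′ side of Ψ2880 and had 213, 160, 121 and 239 reads with CMCT, against 39, 21, 19 and 56 without (log2 change 1.60, adjusted p = 0.00322, same test), a call lost without heat shock (adjusted p = 0.0984). In all, 32 of 926 nt of the stretch passed with more stops (3.46%) and 140 with fewer (15.1%), and in the rest of 18S and 25S rRNA the shares were 3.59% and 14.3%. Without the log phase of the heat shock culture, the nt with more stops were the 7 Ψ alone, and only 1 nt with fewer stops was left.

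The nt with fewer stops after CMCT were densest in the part of the stretch that holds Ψ2826 to Ψ2944. Between nt 2787 and nt 2969, 60 of 181 tested nt passed with fewer stops and 7 with more. The lowest log2 change was at nt 2937, which had 35 reads in natural +CMCT libraries and 176 in natural −CMCT libraries (log2 change −2.97, adjusted p = 4.84e-06, same test). Neighboring nt 2936 had 19 reads with CMCT and 65 without (log2 change −2.49), a call lost without the log phase of the heat shock culture. Of the 13 nt with a 2′-O-methyl group, 6 passed with fewer stops and none with more (Um2729, Gm2791, Gm2793, Gm2815, Am2946 and Cm2959, log2 changes −1.94 to −1.32). Over the stretch, 15.1% of the tested nt passed with fewer stops and 3.46% with more. All of the 6 but Um2729 lie between nt 2787 and nt 2969, where calls for fewer stops were densest. No 2′-O-methyl nt passed when heat shock or the log phase of the heat shock culture was left out. The median over the 926 tested nt was −0.44.

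**Figure D3:**
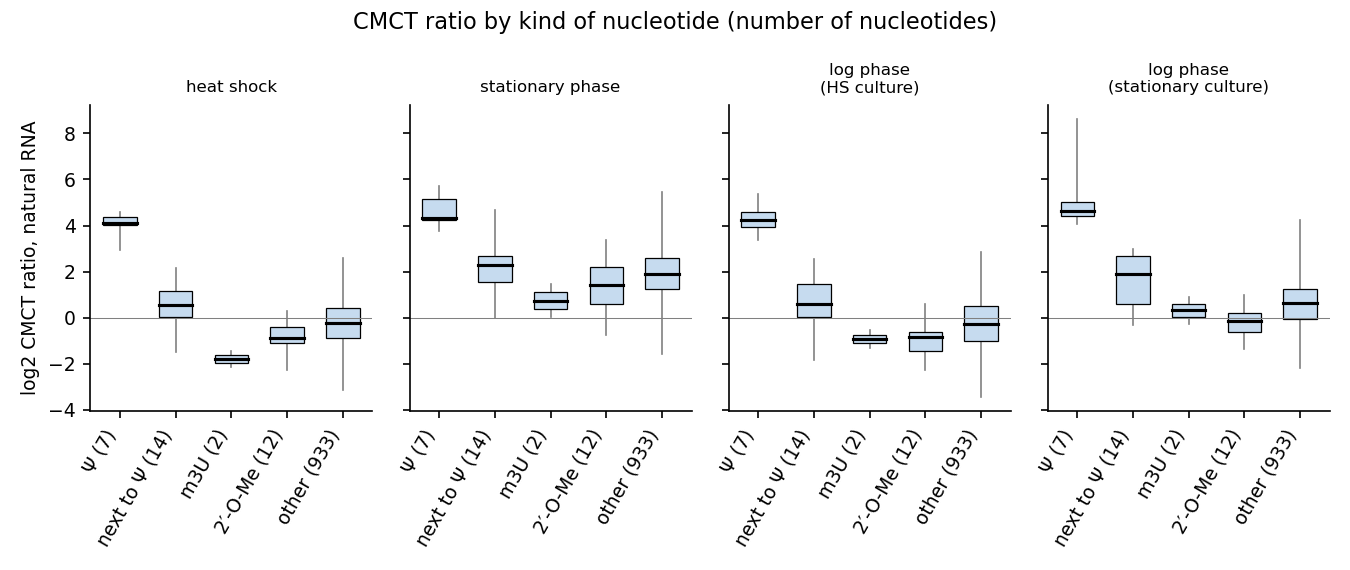
Log2 of (+CMCT reads + 1) over (−CMCT reads + 1) in natural RNA by kind of nucleotide, 1 panel per experiment; thick lines are medians, boxes run between the quartiles and thin lines the range, and nt next to a Ψ are drawn there only. Boxes of the known Ψ stand above all other boxes in each panel, and the other nt have medians of −0.23, 1.88, −0.26 and 0.64.

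The comparison of growth conditions at the Ψ depended on the ratio of all other nt, which differed between experiments. The unmarked nt, which are not a Ψ, next to one, m3U or 2′-O-methyl, had median natural ratios of −0.24, 1.88, −0.26 and 0.64. Before any scaling, heat shock was above both log phase samples at 1 Ψ, below both at 4 and between them at 2, and stationary phase was above both at 2, below both at 2 and between them at 3. After the median of the unmarked nt was subtracted, heat shock was above at 3, below at 2 and between at 2, and stationary phase was below both log phase samples at 6 Ψ and between them at 1. Ψ2944 was below both log phase samples in heat shock on both scales, at 2.96 against 3.37 in the log phase of the same culture and 4.75 in the other before scaling. Ψ2735 was above both in heat shock on both scales, at 4.41 before scaling against 4.22 in the log phase of the same culture and 4.05 in the other. Ψ2735 in stationary phase was at 5.70 before scaling, above both, and within their range after it, at 3.82 against 4.48 and 3.41. Heat shock and stationary phase had 1 library pair each, and the differences between conditions were not tested. Because the study found the stationary phase libraries of lower technical quality, growth condition and library quality cannot be told apart there. The log phase range rests on 2 values, so a further value often falls outside it. How often the other nt of the stretch did so was not counted, so these counts are not shown to be particular to the Ψ.

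The 7 Ψ took the 7 highest natural ratios of the stretch in heat shock and in the log phase of the heat shock culture. In stationary phase their ranks among the 976 nt ran down to 18, and in the log phase of the stationary culture to 9. Ψ2880 ranked 1, 3, 1 and 2. Ψ2944 ranked 7, 18, 7 and 3. The unmarked nt above some Ψ had few or no −CMCT reads: nt 2883 in stationary phase had 43 reads with CMCT and 0 without, and in the log phase of the stationary culture nt 2668 had 18 and 0 and nt 2644 had 17 and 0. By the score of the study (the residual of log2 +CMCT on log2 −CMCT reads over all positions, divided by its SD), 7, 0, 7 and 4 Ψ exceeded the highest score of an 18S or 25S nt that is neither a known Ψ nor next to one. That highest score was at nt 2883 in stationary phase (6.17) and at nt 2766 in the log phase of the heat shock culture (6.24). These thresholds were computed anew from the deposited counts and are not the cutoffs the study printed, so the numbers passing can differ from its own.

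Without CMCT, natural RNA carried strong stops at both m3U sites, and only those at nt 2634 stood apart from IVT RNA. At nt 2634, natural −CMCT libraries held 5409, 1936, 1959 and 1444 reads, against 16, 115, 7 and 8 in IVT −CMCT libraries. As a share of the reads of the stretch, these were 2.51%, 5.30%, 2.15% and 1.37% in natural RNA, against 0.194%, 1.09%, 0.127% and 0.191% in IVT RNA. The groups did not overlap, as was so for 15.1% of the nt of the stretch with at least 50 reads, and the difference was 2.43 percentage points (exact two-sided permutation test, n = 4 each, p = 0.0286, which is the smallest possible, or 0.171 when adjusted by Benjamini-Hochberg over 6 such tests). In the fit over 4824 nt of 18S and 25S rRNA, nt 2634 was higher in natural RNA by 2.86 on the log2 scale (SE 0.91, adjusted p = 0.0128, edgeR's quasi-likelihood test, adjusted by Benjamini-Hochberg). In that direction, 26.3% of these nt passed, and 10.2% of the tested nt of the stretch. The call at nt 2634 was lost without the log phase of the heat shock culture (2.66, adjusted p = 0.0945) and without that of the stationary culture (2.58, adjusted p = 0.0594). IVT RNA of stationary phase stood above the other 3 IVT libraries at nt 2634. Neighboring nt 2633 was also higher in natural RNA, by 2.38, a call that held without heat shock and was lost without any other experiment.

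**Figure D4:**
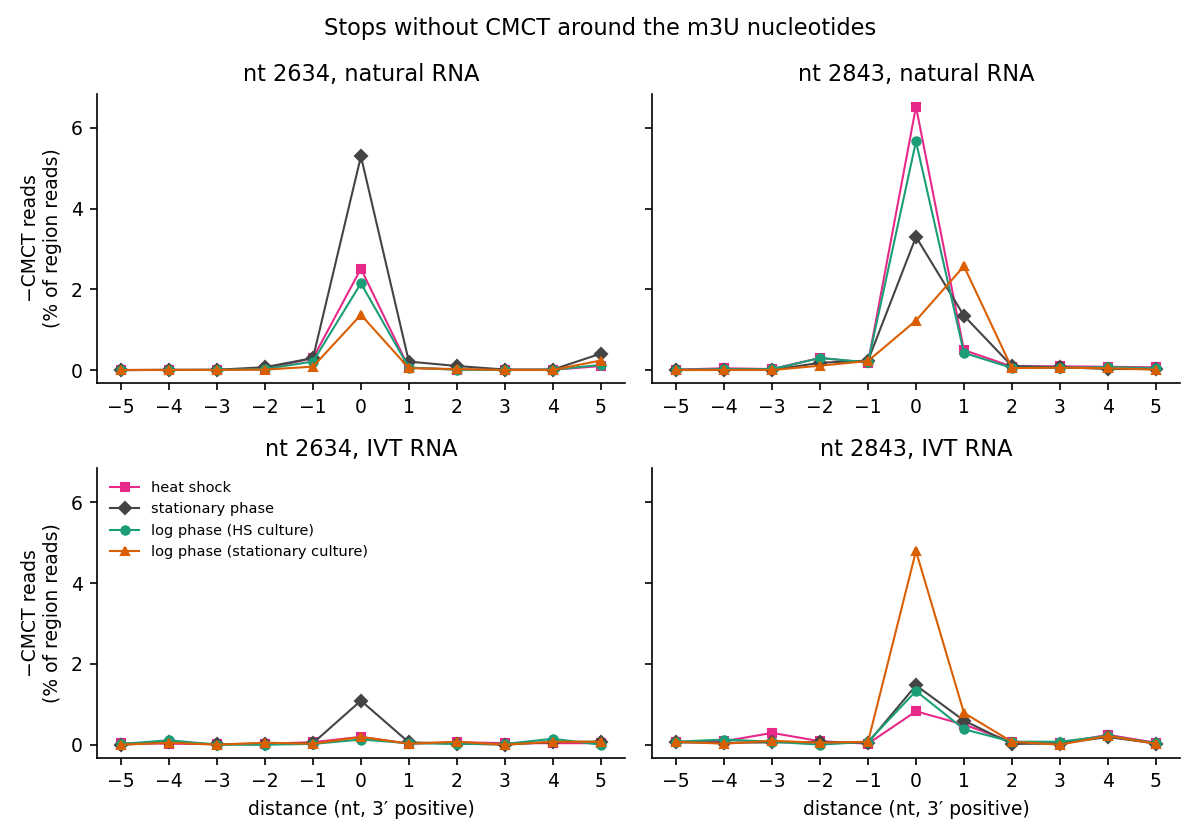
Reads of −CMCT libraries at distances of up to 5 nt from nt 2634 (left) and nt 2843 (right), as a percentage of the reads of the stretch, for natural RNA (top) and IVT RNA (bottom); each line is 1 experiment. At nt 2634 natural RNA peaks at distance 0 in all 4 experiments, between 1.37% and 5.30%; at nt 2843 the log phase of the stationary culture peaks 1 nt to the 3′ side in natural RNA and at 4.80% in IVT RNA.

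Nt 2843 had more natural −CMCT reads in all and no such separation. By −CMCT reads in IVT RNA, it ranked 5, 2, 3 and 2 among the 976 nt, so it was a strong stop in unmodified RNA too. Natural −CMCT libraries held 14057, 1206, 5162 and 1295 reads there, or 6.53%, 3.30%, 5.66% and 1.23% of the reads of the stretch, against 68, 155, 73 and 201 reads, or 0.825%, 1.47%, 1.33% and 4.80%, in IVT RNA. The IVT library of the log phase of the stationary culture was above 2 of the natural libraries, and the fitted change was 1.00 (SE 0.92, adjusted p = 0.434, same test). Without that experiment the natural libraries lay above all IVT libraries, and the share differed by 3.96 percentage points (exact p = 0.1, the smallest possible with n = 3 each).

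Part of the stops near nt 2843 fell on nt 2844, and how many differed between the experiments. Of the natural −CMCT reads at both nt, 7.04% (95% exact binomial interval 6.64 to 7.46) lay at nt 2844 in heat shock, 28.98% (26.8 to 31.2) in stationary phase, 6.99% (6.33 to 7.69) in the log phase of the heat shock culture and 67.7% (66.2 to 69.1) in the log phase of the stationary culture. With CMCT the shares were 16.03%, 56.2%, 8.60% and 52.7%. Both samples of the stationary culture were thus above both samples of the heat shock culture in natural RNA, with and without CMCT. Without CMCT, the 2 samples of the stationary culture were also far from each other, at 28.98% and 67.7%. How often other neighboring nt showed the same order was not counted. IVT RNA without CMCT had 37.6%, 28.9%, 22.3% and 14.1%, which is another order. At nt 2635, next to nt 2634, the same share was 2.29% to 3.83% in natural −CMCT libraries. These intervals cover counting error only. Each culture was grown once, so a difference between cultures cannot be told apart from one between library preparations.

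With CMCT, stops in natural RNA fell at 1 of the 2 m3U nt. Such a fall was also called at 15.1% of the tested nt of the stretch. From nt 2787 to nt 2847, which holds nt 2843, it was called at 18 of 60, so it was not particular to m3U. Nt 2843 had 3159, 1221, 2105 and 1075 reads with CMCT, against 14057, 1206, 5162 and 1295 without (log2 change −1.84, SE 0.44, adjusted p = 0.00355, edgeR's test over 111579 positions). The call at nt 2843 was lost without heat shock (adjusted p = 0.238) and without the log phase of the heat shock culture (adjusted p = 0.270). Neighboring nt 2841, nt 2842 and nt 2844 also fell, by 1.88, 1.56 and 1.25. These 3 calls were lost without heat shock and without the log phase of the heat shock culture too, and that at nt 2844 also without the log phase of the stationary culture. Nt 2634 had 1972, 5336, 1335 and 2691 reads with CMCT, against 5409, 1936, 1959 and 1444 without, with a log2 change of −0.82 and an adjusted p of 0.276.

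Without CMCT, the counts of nt with more and with fewer stops in natural than in IVT RNA differed along the stretch. In the first 244 nt, up to nt 2664, 66 of 202 tested nt had more stops in natural RNA and 6 had fewer, where 26.3% of all 18S and 25S nt had more and 5.45% had fewer, so that these nt were near the rest of the rRNA. From nt 2665 to nt 3335, 16 of 655 had more and 160 had fewer. In the last 61 nt, from nt 3336, 9 of 31 had more and 1 had fewer. At a minimum of 10 reads, 12 of 52 of these last nt had more and 22 had fewer, with read totals alone 1 had more and 2 fewer, and none had more without the log phase of either culture or without stationary phase. Over the stretch 91 nt had more and 167 fewer, and in the rest of 18S and 25S rRNA 1180 of 3936 had more and 96 fewer. This split moves with the scaling: read totals alone gave 33 with more and 218 with fewer, DESeq2 138 and 164, and scaling by the reads of the stretch alone, an alternative chosen after seeing the data, 215 and 132, and the median over all 18S and 25S nt tested was 0.77, 0.36 with read totals alone and 1.08 with DESeq2. Over the whole table, where the rRNA share of a library enters, 412 had more and 1 fewer. In the other 3 alternatives the first 244 nt had more nt with more stops than with fewer, and nt 2665 to nt 3335 the reverse. With 1 experiment left out, the first 244 nt had 7 (without stationary phase) to 31 (without heat shock) nt with more stops and 1 to 4 with fewer.

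**Figure D5:**
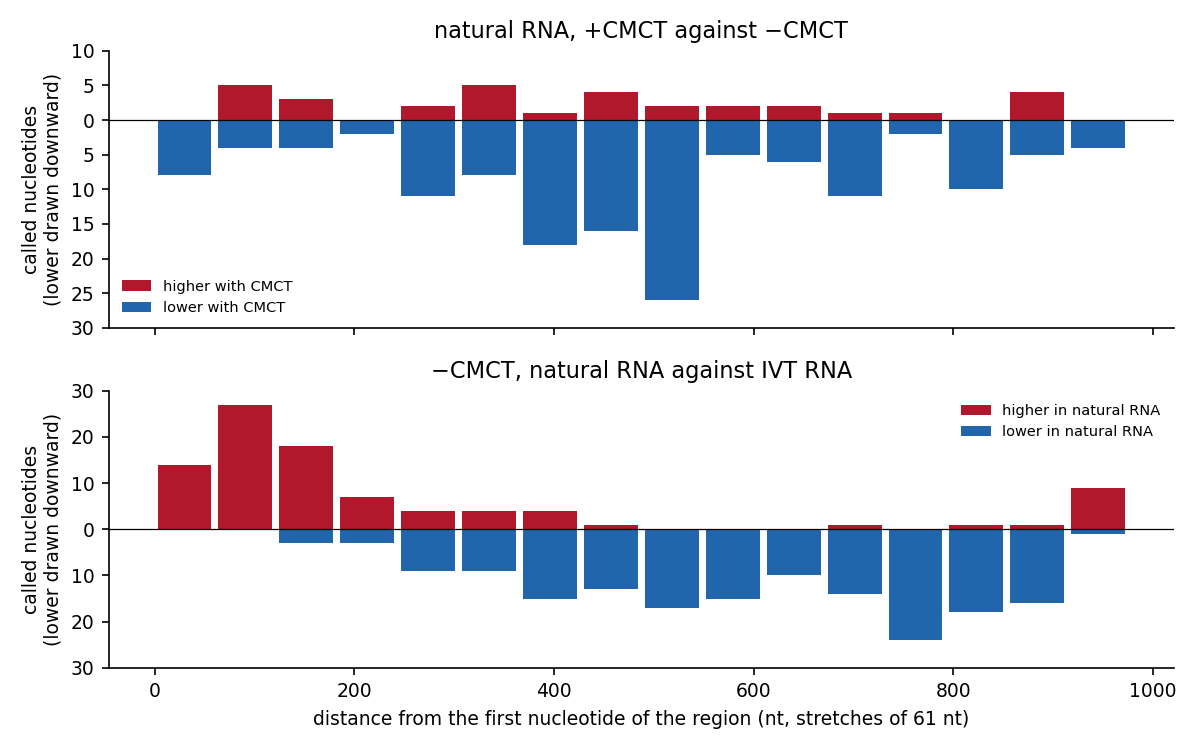
Number of nucleotides past the test in 16 consecutive stretches of 61 nt, those with more stops drawn upward in red and those with fewer downward in blue, for +CMCT against −CMCT in natural RNA (top) and natural against IVT RNA without CMCT (bottom); the x axis is the distance from the first nucleotide. In the bottom panel the red bar is the taller one in the first 4 stretches and in the last, and the blue bar in the fifth to the fifteenth, and in the top panel the tallest blue bar, 26 nt, is the ninth stretch.

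Some nt had their stops mainly in IVT RNA. Nt 2698 had 102, 115, 251 and 86 reads in IVT −CMCT libraries, and the natural −CMCT libraries, with far more reads in all, had 152, 32, 81 and 37 (natural over IVT log2 change −5.35, adjusted p = 6.85e-05, same test). At nt 3388 the natural −CMCT libraries had no read and IVT libraries had 8, 61, 21 and 4. Its share of the reads of the stretch was thus at least 493.5-fold lower in natural RNA, with 3 reads over all 4 natural libraries taken as the floor. Nt 3388 lies close to nt 3396, the 3′ end of 25S rRNA, and the study selected cDNA by insert length. A stop so near an RNA end gives a very short insert, in natural and in IVT RNA that ends at nt 3396 alike. The IVT libraries had reads there all the same, and why the natural libraries had none was not tested. The fold is thus a difference in reads, and is not shown to be one in stops. Nt 2945, beside Ψ2944, had 306, 54, 168 and 87 reads in natural −CMCT libraries, against 79, 178, 150 and 238 in IVT −CMCT libraries (log2 change −4.39, adjusted p = 0.000721, same test). It was 1 of 5 of the 14 neighbors of a Ψ that were lower in natural RNA, with nt 2736, nt 2825, nt 2881 and nt 2924, where 5.45% of all 18S and 25S nt and 18.8% of the tested nt of the stretch were lower. None of the 14 was higher, and in the fit over the whole table none was lower and 3 were higher. No Ψ passed this test in either direction, with log2 changes of −1.53 to 1.15, and 5 of the 7 were higher in the fit over the whole table.

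Other stops were missing or nearly so in IVT RNA. Nt 2662 had 59, 67, 29 and 14 reads in natural −CMCT libraries and 0 in each IVT −CMCT library, which makes its share at least 3.58-fold higher in natural RNA, with 3 reads over all 4 IVT libraries as the floor, and its call was lost without stationary phase. Nt 2700 had 244, 315, 156 and 343 natural reads, against 0, 7, 0 and 2 IVT reads (log2 change 3.65, adjusted p = 0.00166, same test). Among the 12 nt with a 2′-O-methyl group that had enough reads, 3 were higher in natural RNA (Am2640, Um2729 and Gm2815, by 2.84, 2.80 and 3.84) and Cm2959 was lower, by 2.14. The share that was higher was near the 26.3% of all 18S and 25S nt and above the 10.2% of the tested nt of the stretch. In the fit without the log phase of the heat shock culture, none passed.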

How the data were processed

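The authors aligned reads to sacCer3 with Bowtie 0.12.5, allowing up to 2 mismatches. They deposited the count of reads assigned to each position, in 1 table with a column per library and no strand or base. The study places the end of the cDNA at the base just 3′ of a Ψ. In the nt numbers used here, that stop is counted at the Ψ itself. Reads of the rDNA copies are listed as combined. The known Ψ were those marked in all sheets of the study's site list. The nucleotides and lists, with the 2′-O-methyl and m3U names taken from general knowledge of yeast rRNA, were chosen with earlier results of these data known. No genome sequence was used, so the base at a nt was not checked.

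Counts were tested with edgeR 4.0.16 in R 4.3.3 (quasi-likelihood test, TMM, Benjamini-Hochberg over all positions tested, threshold 0.05, at least 50 reads over the libraries fitted), with experiment as a block for CMCT effects because each RNA was split in 2, and positions with the same counts taken once. The +CMCT and −CMCT libraries of an experiment deviated together, with r of 0.56 to 0.73 over 5045 rRNA nt. Natural and IVT −CMCT libraries were compared over 18S and 25S nt, with rRNA reads as library size. Shares were compared by exact permutation tests in SciPy over libraries. The scripts were tested on simulated counts. Named were the Ψ and their neighbors, nt 2634 and nt 2843 with 2 nt on either side, the 2′-O-methyl nt, up to 10 further called nt per fit and direction, and the 5 unmarked nt of highest ratio per experiment; nt 2668, nt 2644 and nt 2883 come from the last. Alternatives were library sizes alone, DESeq2, minimums of 10 and 200 reads, the replicate block, each experiment left out, all listed positions and, for −CMCT stops, the whole table and the +CMCT libraries.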

Additional observations from a re-analysis of the deposited data

Results flagged for a closer look

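The natural ratio of Ψ2826 in the log phase of the stationary culture, 8.63, stood far from the other 3 experiments, which lay between 4.13 and 4.36; it rests on a −CMCT library with 0 reads. In IVT RNA without CMCT, nt 2634 took 1.09% of the reads of the stretch in stationary phase, against 0.127% to 0.194% in the others. Likewise nt 2843 took 4.80% in the log phase of the stationary culture, against 0.825% to 1.47%. The stretch took 12.04% of 18S and 25S reads in the natural +CMCT library of stationary phase, against 18.4% to 19.1% in the others. Of 26 groups of 4 libraries or library pairs looked at, these 4 had 1 value far from the rest. About 1 in 20 was taken as the rate by chance, which was not estimated from these data. The groups share libraries, so 4 of 26 is not shown to be an excess. The CMCT effect at Ψ2735 differed between natural and IVT RNA by 3.20 on the log2 scale, as tested above.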

How the results depend on the processing

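The numbers of nt called depended on the setting more than the Ψ did. For CMCT in natural RNA, nt with more stops numbered 49 with DESeq2 and 7 to 40 with 1 experiment left out, and nt with fewer stops 257 with library size alone, 230 with DESeq2, 80 at a minimum of 10 reads and 1 to 282 with 1 experiment left out. With no replicate block, the pairing was ignored and edgeR called 0 nt and 0 Ψ (1446 of 111579 positions with an unadjusted p under 0.05), with log2 changes at the Ψ of 2.78 to 4.50. In IVT libraries, an alternative chosen after seeing the data, 0 nt were higher, 0 lower and 0 Ψ called, and nt 2634 changed by 0.71, the other direction. For the natural minus IVT difference, nt higher numbered 2 with library size alone, 6 with DESeq2, 0 at 200 reads, 0 with all listed positions, 0 with no replicate block and 0 to 1 with 1 experiment left out. Nt lower numbered 2 with library size alone, 33 with DESeq2, 1 with all listed positions and 0 to 1 with 1 left out. Ψ called numbered 2, 5, 0, 0, 0 and 0 to 1 in the same settings as for nt higher. For −CMCT stops, nt higher in natural RNA numbered 33 with read totals alone, 138 with DESeq2, 412 over the whole table, 215 by reads of the stretch and 9 to 60 with 1 experiment left out. Nt lower numbered 255 in +CMCT libraries, 1 over the whole table and 95 to 164 with 1 left out. The change at nt 2634 was 2.58 to 3.08 with 1 left out and 3.06 with the replicate block, and that at nt 2843 was 5.27 over the whole table, past the threshold; rRNA is a larger part of natural than of IVT libraries. Minus the unmarked median, heat shock was above log phase at 3 Ψ and below at 2, and stationary phase above at 0 and below at 6. With the score fitted over positions of at least 10 reads, 2 Ψ passed in stationary phase. Over the whole table, the −CMCT change at Ψ2826 was 3.08 and at Ψ2880 2.81 (−1.53 and −1.28 otherwise), and the median of the 14 neighbors of a Ψ was 2.66 (−1.56 otherwise). At a minimum of 10 reads the median of the last 61 nt was −0.27 (1.33 otherwise). The cause of these differences was not tested. The IVT −CMCT libraries, with 4190 to 10555 reads of the stretch, limit every comparison with IVT RNA.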
